A study of Homo sapiens with 2 samples.

Results

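Chemokine-high endothelial cells were the barcodes that gave the largest share of their RNA to 6 inflammatory messengers, CXCL8, CXCL1, CXCL2, CXCL3, CCL2 and IL6, in single-cell libraries of human umbilical vein endothelial cells (HUVECs). HUVECs are primary endothelial cells, here grown for about 48 hours into a confluent lining of microfluidic channels of 50 µm and then perfused with red blood cells for 4 hours. In the 5% pdRBC group, 5% of the red cells had been dehydrated with nystatin and sucrose (hemoglobin concentration per cell 40 to 42 g/dL), a drug-made stand-in for stiff sickle red cells, and the rest were healthy. The hRBC group had healthy red cells alone, so both groups had flow and red cell contact, and no static or cell-free group is part of these data. The number of devices, cultures and donors behind each library is not given in the sources used here. Each group is 1 library, so no difference between the groups has a replicate check, cells are not replicates, and no p-value is given.

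Barcodes with 5000 or more UMIs (unique molecular identifiers, counted RNA molecules) and at most 10% mitochondrial UMIs were kept, which left 2138 of 5493 barcodes, 1369 of 5% pdRBC and 769 of hRBC. The top 10% of these by share of UMIs from the 6 genes, both libraries ranked together, gave 213 members, 152 of 5% pdRBC and 61 of hRBC, and 1925 remaining barcodes, 1217 and 708. Members were thus chosen by their measured share of the 6 genes, and their high levels of the 6 genes are a description, not a finding. The last member gave 0.0459% of its UMIs to the 6 genes and the first barcode outside gave 0.0457%, and the 5 members nearest the limit rested on 3 to 5 UMIs. Between 0.8 and 1.25 times the limit lay 112 barcodes, 60 of them members, so the limit cuts through a filled range of shares. In 14 members 50 or more UMIs of the 6 genes were counted, and whether the highest members form a separate type was not tested.

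Chemokines are small secreted proteins that draw leukocytes to the vessel wall. CXCL8, CXCL1, CXCL2 and CXCL3 act mainly on neutrophils, CCL2 draws monocytes, and IL6 is a cytokine that drives the acute phase response. In endothelial cells these genes are low at rest and are switched on within hours by transcription factors of the NF-kB and AP-1 families after interleukin-1, tumor necrosis factor, bacterial products or disturbed flow, together with E-selectin (SELE), ICAM1 and VCAM1, the adhesion receptors that capture leukocytes. NF-kB also switches on its own inhibitors, NFKBIA and TNFAIP3.

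The promoters of the genes of the rule and of 3 of the genes highest in the members are shown, as these genes moved together across barcodes. Of the 15 other genes highest in members 12 had a promoter entry. The 3 shown are the only 3 of these 12 that held the kB letters given below, so they do not stand for the others. CXCL8, CXCL1, CXCL3 and CXCL2 lie in 1 cluster on chromosome 4 (GRCh38, 73740506 to 74099293 from the first base of CXCL8 to the last of CXCL2), CCL2 on chromosome 17 and IL6 on chromosome 7. Each sequence holds the 250 bases before the gene's RefSeq start (GRCh38.p14) on the gene's own strand, 5′ to 3′. Other annotated transcripts can begin further upstream, and capitals mark matches to the kB letters GGNNTTTCC on either strand.
CXCL8 (chr4:73740319-73740568, plus strand): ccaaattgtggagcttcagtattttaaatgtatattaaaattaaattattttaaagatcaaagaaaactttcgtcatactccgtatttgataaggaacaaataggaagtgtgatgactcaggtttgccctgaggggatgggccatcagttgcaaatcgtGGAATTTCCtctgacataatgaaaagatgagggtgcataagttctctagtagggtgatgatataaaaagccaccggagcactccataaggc
CXCL1 (chr4:73869143-73869392, plus strand): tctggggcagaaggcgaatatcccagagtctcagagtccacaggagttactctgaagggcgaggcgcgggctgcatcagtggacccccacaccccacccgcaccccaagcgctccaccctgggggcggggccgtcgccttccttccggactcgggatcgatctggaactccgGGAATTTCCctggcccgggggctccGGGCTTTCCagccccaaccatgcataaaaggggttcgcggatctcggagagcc
CXCL2 (chr4:74099196-74099445, minus strand): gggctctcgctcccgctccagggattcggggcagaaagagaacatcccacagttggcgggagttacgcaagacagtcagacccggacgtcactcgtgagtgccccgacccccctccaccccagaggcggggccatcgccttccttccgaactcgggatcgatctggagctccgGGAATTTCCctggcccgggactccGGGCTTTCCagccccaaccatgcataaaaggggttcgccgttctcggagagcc
CXCL3 (chr4:74038690-74038939, minus strand): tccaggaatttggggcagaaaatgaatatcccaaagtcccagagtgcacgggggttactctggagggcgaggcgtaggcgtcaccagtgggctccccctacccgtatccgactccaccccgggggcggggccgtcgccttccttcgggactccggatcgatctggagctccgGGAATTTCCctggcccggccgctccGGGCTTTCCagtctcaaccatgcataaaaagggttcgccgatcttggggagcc
IL6 (chr7:22726950-22727199, plus strand): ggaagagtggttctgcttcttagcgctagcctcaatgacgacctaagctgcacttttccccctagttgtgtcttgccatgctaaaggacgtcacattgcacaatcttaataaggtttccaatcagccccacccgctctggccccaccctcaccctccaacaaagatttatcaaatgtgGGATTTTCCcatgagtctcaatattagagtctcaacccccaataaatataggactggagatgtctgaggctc
TNFAIP3 (chr6:137867009-137867258, plus strand): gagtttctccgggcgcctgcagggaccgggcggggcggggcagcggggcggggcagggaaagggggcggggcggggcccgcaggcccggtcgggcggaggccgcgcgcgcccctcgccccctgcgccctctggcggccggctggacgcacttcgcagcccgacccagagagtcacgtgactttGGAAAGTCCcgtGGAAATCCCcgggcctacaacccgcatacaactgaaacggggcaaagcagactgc
ICAM1 (chr19:10270870-10271119, plus strand): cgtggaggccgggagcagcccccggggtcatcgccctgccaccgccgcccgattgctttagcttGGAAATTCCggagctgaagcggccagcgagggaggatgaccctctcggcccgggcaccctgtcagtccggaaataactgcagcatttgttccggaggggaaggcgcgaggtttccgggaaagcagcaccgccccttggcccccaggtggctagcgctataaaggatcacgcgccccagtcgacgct
NFKBIA (chr14:35404750-35404999, minus strand): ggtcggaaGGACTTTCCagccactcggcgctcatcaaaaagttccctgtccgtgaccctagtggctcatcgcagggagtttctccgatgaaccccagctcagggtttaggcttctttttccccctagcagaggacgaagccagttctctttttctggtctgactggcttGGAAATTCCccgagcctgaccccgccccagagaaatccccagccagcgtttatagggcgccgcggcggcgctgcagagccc
The kB letters were found in all 5 promoters of the rule's genes that had an entry, at 91 to 83 bases before the start of CXCL8 and 72 to 64 bases before that of IL6. CXCL1, CXCL2 and CXCL3 each had a pair of matches at nearly the same places, and their 250 bases were 70.1% to 81.4% identical to each other in a gapped alignment, against 43.9% to 47.9% identical to CXCL8. Of 27305 promoters of that length 5.48% held the kB letters, as did 6.05% of the 6881 promoters of genes measured below, 15% of the 60 promoters of genes higher in members and 2.22% of the 45 promoters of genes lower in members. The AP-1 letters TGANTCA, searched on both strands, were in 1 of the 5 promoters of the rule's genes (CXCL8) and in 10%, 2.22% and 3.73% of the promoters of genes higher in members, lower in members and measured, and in 6.60% of all promoters. A match to letters is a description and not a binding site. CCL2 has no sequence here.

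The members were endothelial by their other genes. PECAM1, an endothelial adhesion protein, stood at 635 and 616 CPM (the gene's UMIs per 1e6 UMIs of the same barcodes) in members of 5% pdRBC and hRBC, against 704 and 733 CPM in the remaining barcodes of the same libraries. CDH5, the endothelial cadherin, stood at 573 and 612 CPM in members, against 620 and 650 CPM in the remaining barcodes. All 10 endothelial markers were measured, 0 passed the 1.5-fold rule for a call that is set out further on, and 8 were lower in members in both libraries, with a median log2 fold of -0.20. Of the markers of other cells, PTPRC, CD14, LYZ, CSF1R, CD3D, MS4A1, PF4, HBA1 and HBB had 0 UMIs in the members of both libraries. Some others were present in members and remaining barcodes alike. Of 12 fibroblast and mural markers 7 had 0 UMIs in members, COL1A1 and PDGFRB among them, and RGS5 stood at 370 CPM in members of 5% pdRBC and 338 CPM in members of hRBC, against 321 and 368 CPM in remaining barcodes. The 12 together stood at 392 and 370 CPM in members, against 341 and 390 CPM in remaining barcodes, and TAGLN had 29 member UMIs in 5% pdRBC and 21 in hRBC. Of 12 monocyte and macrophage markers 9 had 0 UMIs in members, and CD68, a lysosomal protein, stood at 45.2 and 35.9 CPM in members, against 30.8 and 29.9 CPM in remaining barcodes. Of 10 neutrophil markers LTF alone had UMIs in members, 2 in 5% pdRBC and 0 in hRBC. Of 10 T and NK cell markers 6 had 0 UMIs in members. IL7R stood at 12.7 and 18.0 CPM in members, against 8.04 and 10.5 CPM in remaining barcodes, and was not called. TRAC had 8 and 5 member UMIs and KLRD1 7 and 0. The T and NK cell markers together stood at 20.8 and 24.0 CPM in members, against 12.3 and 14.9 CPM in remaining barcodes. Of 8 epithelial markers 3 were measured and KRT7, a keratin, was called higher, at 181 against 116 CPM in 5% pdRBC and 266 against 152 CPM in hRBC, while CDH1, KRT5 and KRT14 had 0 UMIs in members. The 8 together stood at 312 and 479 CPM in members, against 230 and 318 CPM in remaining barcodes, and the part of all these markers in the results was not tested. No cell type that should lack the 6 genes was set apart, so the level that free RNA gives was not measured.

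Members held a median of 11444 UMIs in 5% pdRBC and 12857 in hRBC, against 10121 and 12255.5 in the remaining barcodes, and mitochondrial UMIs had medians of 1.83% and 1.52% in members against 1.80% and 1.81% in the rest. In 5% pdRBC the share of members was larger among deep barcodes, by the values given below. The libraries held 15405357 UMIs (5% pdRBC) and 9925432 UMIs (hRBC) in kept barcodes, of which members had 1968444 and 835066. With at most 10% mitochondrial UMIs, 225 of the 1635 barcodes of 5% pdRBC and 3073 of the 3858 barcodes of hRBC had under 5000 UMIs, so the minimum leaves out most of the hRBC library. Of 9 barcode sequences present in both libraries, 2 were kept in both and 0 were members. Doublets were not called and were left in.

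Members made up 11.1% of the kept 5% pdRBC barcodes (152 of 1369, exact binomial 95% interval 9.49 to 12.9) and 7.93% of the kept hRBC barcodes (61 of 769, 6.12 to 10.1). The difference was 3.17 percentage points (0.489 to 5.71). These intervals, like all below, cover counting error only and hold no spread between devices. Intervals made from UMIs, as for mix and folds, also hold no spread between cells, so they are too narrow where few cells hold most UMIs. In barcodes of 16000 or more UMIs the shares were 21.9% (16.1 to 28.6) with 5% pdRBC and 8.64% (4.81 to 14.1) with hRBC. In each of the 3 shallower ranges the 5% pdRBC share was also above the hRBC share, with intervals that overlapped, at 8.41% against 4.51% from 5000 to 8000 UMIs, 9.21% against 7.73% from 8000 to 12000 UMIs, and 11.1% against 9.54% from 12000 to 16000 UMIs. With each barcode thinned to 5000 UMIs, 10.2% of 5% pdRBC and 6.50% of hRBC barcodes had 3 or more UMIs of the 6 genes. At 5 or more thinned UMIs the shares were 4.67% and 3.38%, and the interval of the difference held 0 (1.29 points, -0.57 to 3.00). At 10 or more they were 1.24% (17 barcodes) and 1.56% (12 barcodes), a difference of -0.32 points (-1.58 to 0.735). A higher share with 5% pdRBC was thus seen at 3 or more thinned UMIs and was not detectable at 5 or more or at 10 or more. With the top 20% in place of the top 10% the difference was 7.84 points, with the top 5% it was 1.24 points, with CXCL8 left out of the score it was 1.34 points, and with a minimum of 3000 UMIs it was 5.27 points.

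**Figure D1:**
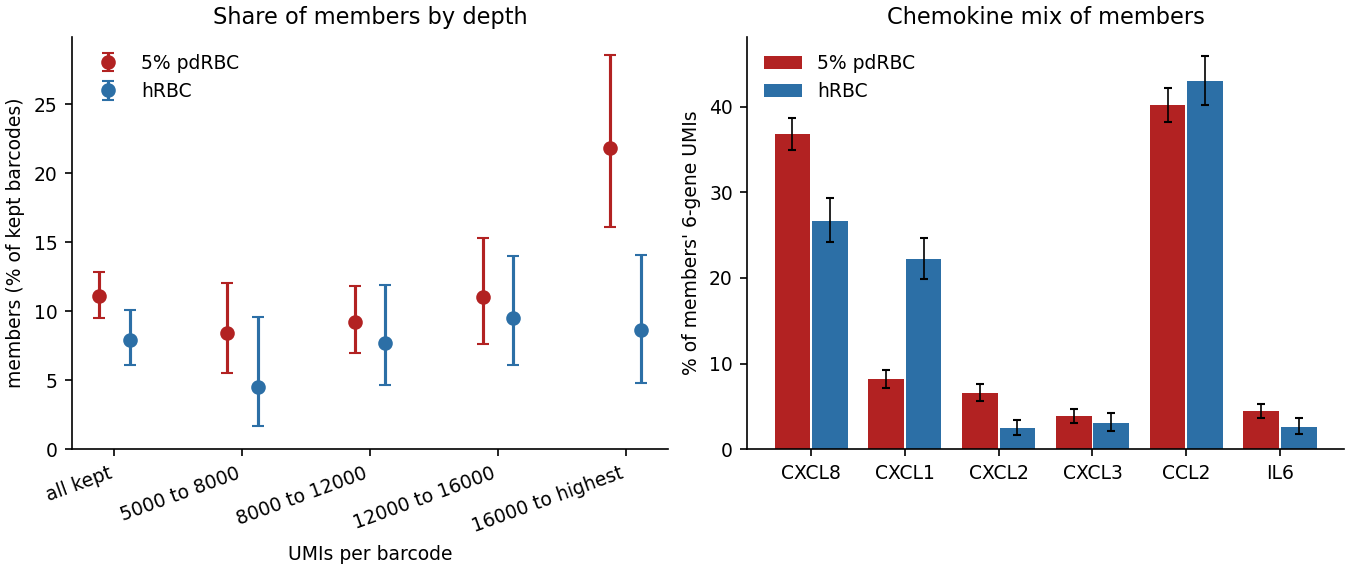
Left, members as a percent of kept barcodes in 5% pdRBC (red) and hRBC (blue), over all kept barcodes and by UMIs per barcode. Right, each gene's percent of the members' UMIs of the 6 genes. Points and bars are library values and error bars are exact 95% binomial intervals that cover counting error only. The libraries stand furthest apart in share at 16000 or more UMIs (21.9% and 8.64%) and in mix for CXCL1 (8.16% and 22.2%).

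Most members had few chemokine UMIs and a few had very many. The 6 genes gave a median of 9.5 UMIs per member in 5% pdRBC (quartiles 6 and 18) and 11 in hRBC (7 and 20), and the highest member held 216. Members held 70.0% of the 6-gene UMIs of the kept 5% pdRBC barcodes and 70.1% of those of hRBC. The 10 members with the most held 33.9% and 51.3% of their library's member UMIs, so the hRBC values below lean more on few cells. No UMI of any of the 6 genes was found in 52.3% of kept 5% pdRBC and 59.3% of kept hRBC barcodes.

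The chemokine mix differed between the libraries. CXCL1 gave 8.16% of the members' 6-gene UMIs in 5% pdRBC (203 UMIs, 7.11 to 9.30) and 22.2% in hRBC (264 UMIs, 19.9 to 24.7), a difference of -14.0 points (-16.7 to -11.4). It had a UMI in 36.8% of 5% pdRBC and 60.7% of hRBC members. With each barcode thinned as above the shares were 27.0% in 5% pdRBC (20.1 to 34.8) and 42.6% in hRBC (30.0 to 55.9). The lower place of CXCL1 with 5% pdRBC was thus seen in cells as well as in UMIs, but with overlapping intervals at equal depth. CXCL8 gave 36.8% in 5% pdRBC (915 UMIs, 34.9 to 38.7) and 26.7% in hRBC (317 UMIs, 24.2 to 29.3). In hRBC 54.6% of the members' CXCL8 UMIs came from 5 members, against 21.0% in 5% pdRBC. CXCL8 had a UMI in 68.4% of 5% pdRBC and 60.7% of hRBC members. The difference in mix was 10.1 points (6.89 to 13.3), and 4.69 points when CXCL8 was left out of the score that chose the members.

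CXCL2 gave 6.59% of the mix in 5% pdRBC (164 UMIs) and 2.44% in hRBC (29 UMIs), a difference of 4.15 points (2.74 to 5.47). Its close relatives thus did not share a direction: CXCL1 took a smaller and CXCL2 a larger part with 5% pdRBC. CXCL3 gave 3.86% in 5% pdRBC (96 UMIs) and 3.11% in hRBC (37 UMIs), with an interval of the difference that held 0 (-0.61 to 1.98 points). CXCL1, CXCL2 and CXCL3 are near-identical in parts, and how reads that fit more than 1 of them were counted is not given in the sources used here, so the split among the 3 is uncertain. CCL2 was the largest part in both, at 40.2% (999 UMIs) in 5% pdRBC and 43.0% (511 UMIs) in hRBC, and the interval of the difference held 0 (-6.29 to 0.621 points). It had a UMI in 65.1% of 5% pdRBC and 80.3% of hRBC members (difference -15.2 points, -27.4 to -0.88). With each barcode thinned as above the shares were 54.6% in 5% pdRBC (46.3 to 62.7) and 60.7% in hRBC (47.3 to 72.9). These intervals overlapped, so the difference in detection was less clear at equal depth. The level of CCL2 was 508 CPM in 5% pdRBC and 612 CPM in hRBC members (0.829-fold, 0.745 to 0.924). In remaining barcodes its level was the other way round, at 33.9 CPM in 5% pdRBC and 26.6 CPM in hRBC (1.27-fold, 1.09 to 1.49). IL6 was the smallest part in hRBC after CXCL2, at 2.61% (31 UMIs), and stood at 4.46% (111 UMIs) in 5% pdRBC.

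Outside the members the same order of CXCL1 and CXCL2 was seen. CXCL1 had 7.07 CPM in remaining 5% pdRBC barcodes and 10.2 CPM in remaining hRBC barcodes, 0.691-fold (0.514 to 0.930). CXCL2 had 3.87 CPM in 5% pdRBC and 0.880 CPM in hRBC, 4.18-fold (2.07 to 10.7). CXCL8 had 19.9 CPM in 5% pdRBC and 8.47 CPM in hRBC, 2.34-fold (1.82 to 3.07), against 1.22-fold (1.08 to 1.40) among members. IL6 had a UMI in 35.5% of 5% pdRBC and 29.5% of hRBC members, against 11.6% and 10.2% of remaining barcodes.

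**Figure D2:**
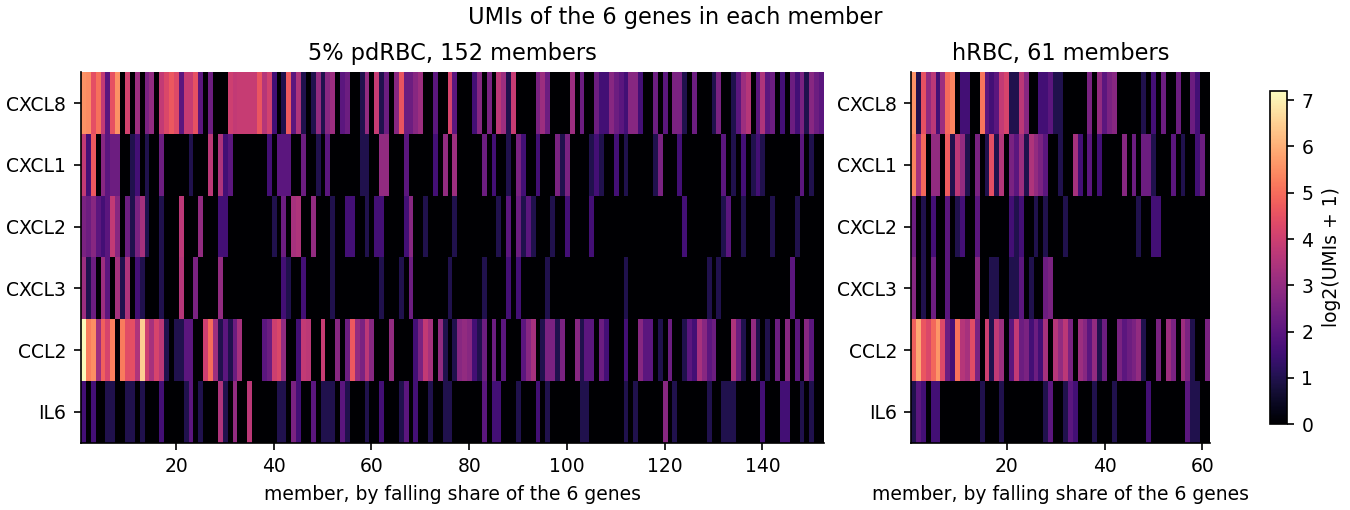
UMIs of the 6 genes, as log2(UMIs + 1), in each of the 152 members of 5% pdRBC (left) and 61 members of hRBC (right). Columns are members by falling share of the 6 genes and rows are genes. CXCL8 and CCL2 carry most UMIs, often in different members, and the highest members hold several of the genes at once.

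To see whether the 6 genes went together, each gene was left out of the score in turn and read in the top 10% by the other 5, a measure that the left-out gene did not enter. CXCL8 stood at 260 CPM in the top 10% and 52.7 CPM in the rest of 5% pdRBC (4.92-fold, 4.37 to 5.54) and at 206 against 22.2 CPM in hRBC (9.31-fold, 7.60 to 11.4). CCL2 stood at 328 against 59.3 CPM in 5% pdRBC (5.53-fold) and 492 against 39.9 CPM in hRBC (12.3-fold). Of the 6 genes CXCL3 had the largest fold, 25.8 (16.6 to 43.0) in 5% pdRBC and 89.9 (35.9 to 386) in hRBC, where the rest held 4 UMIs of it. IL6 had the smallest, at 3.38-fold (2.60 to 4.33) and 2.99-fold (1.80 to 4.67). CXCL1 stood 6.44-fold higher in 5% pdRBC and 13.6-fold in hRBC, and CXCL2 13.5-fold and 22.1-fold. All 6 genes were thus higher in barcodes high in the other 5, in both libraries.

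Single members were still uneven. A UMI of 3 or more of the 6 genes was found in 44.7% of 5% pdRBC and 52.5% of hRBC members, and of all 6 in 5 and 4 members. With each barcode thinned as above, 3 or more were found in 24.3% of 5% pdRBC and 19.7% of hRBC members. The order of the libraries thus changed at equal depth and is not read as a difference. Among members with 10 or more 6-gene UMIs, CXCL8 alone made up 80% or more in 14 of 76 of 5% pdRBC and 3 of 34 of hRBC, and CCL2 alone in 13 of 76 and 6 of 34. Both genes made up 20% or more each in 19 of 76 and 8 of 34. CXCL8 outnumbered CCL2 in 49.3% of 5% pdRBC members (75 of 152, 41.1 to 57.6) and 31.1% of hRBC members (19 of 61, 19.9 to 44.3).

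All other genes were then compared between members and remaining barcodes within each library, as CPM with the 6 genes left out of the totals. A gene was measured at 100 or more UMIs in each library, and called higher or lower at 1.5-fold or more in the same direction in both libraries with both counting intervals leaving out 1. Of 8487 measured genes 76 (0.895%) were called higher in members and 61 (0.719%) lower. The choice of members used the same cells, so these values describe the members and test nothing. Folds are members over remaining barcodes, and levels are given as members against remaining barcodes.

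TNFAIP3 and ICAM1 had the largest folds of the genes called higher in members. TNFAIP3, a ubiquitin-editing enzyme that shuts off NF-kB signaling, stood at 47.8 CPM in members and 7.96 CPM in remaining barcodes of 5% pdRBC (6.01-fold, 4.50 to 8.00), and at 46.8 against 7.26 CPM in hRBC (6.47-fold, 4.22 to 9.71). After thinning to 5000 UMIs it was detected in 18.4% against 2.71% of barcodes in 5% pdRBC and in 19.7% against 4.38% in hRBC. ICAM1, a receptor for leukocyte integrins, stood at 103 against 23.1 CPM in 5% pdRBC (4.44-fold, 3.70 to 5.32) and 121 against 15.5 CPM in hRBC (7.82-fold, 5.99 to 10.2). NFKBIA, which holds NF-kB in the cytoplasm, stood at 296 against 113 CPM in 5% pdRBC (2.63-fold, 2.38 to 2.89) and 278 against 104 CPM in hRBC (2.68-fold, 2.31 to 3.09). All 3 were called higher under every alternative in which they were measured.

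Of the 26 NF-kB subunits and feedback genes 20 were measured, 7 were called higher and 0 lower, with a median log2 fold of 0.58, against -0.05 over all measured genes. Beside TNFAIP3 and NFKBIA these were IRAK2, a kinase of the interleukin-1 receptor complex (2.40-fold in 5% pdRBC and 2.41-fold in hRBC), RELB, an NF-kB subunit (2.19-fold in 5% pdRBC and 2.43-fold in hRBC), NFKB1, NFKBIZ and RIPK2. BIRC3, an NF-kB-induced ubiquitin ligase, was under the UMI minimum, at 35 UMIs in members and 24 in remaining barcodes of 5% pdRBC (17.8 against 1.79 CPM) and 41 against 21 UMIs in hRBC (49.2 against 2.31 CPM). Of 36 NF-kB and interleukin-1 target genes 18 were measured and 6 were called higher, with a median of 0.68. PTX3, a secreted pattern recognition protein, stood at 225 against 88.8 CPM in 5% pdRBC and 281 against 89.4 CPM in hRBC. SLC7A2, an arginine transporter, stood at 76.3 against 27.3 CPM in 5% pdRBC and 106 against 27.4 CPM in hRBC. PTGS2, which makes prostaglandins in inflammation, was 1.55-fold higher in 5% pdRBC and 1.62-fold higher in hRBC, and PTGER4, a receptor for prostaglandin E2, 1.77-fold in 5% pdRBC and 2.01-fold in hRBC.

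E-selectin, the receptor that first slows leukocytes, was under the UMI minimum and was looked at after its values were seen. SELE had 73 UMIs in members and 15 in remaining barcodes of 5% pdRBC (37.1 against 1.12 CPM, 32.4-fold, 18.9 to 62.4), and 41 against 9 UMIs in hRBC (49.2 against 0.990 CPM, 47.6-fold, 23.8 to 116). These UMIs lay in 12 of 152 members of 5% pdRBC and 6 of 61 members of hRBC, and 10 and 6 of these had more CCL2 than CXCL8 UMIs. In those members CCL20, a chemokine for dendritic cells and lymphocytes, had 14 UMIs in 5% pdRBC and 31 in hRBC, against 2 and 4 UMIs in all members with no SELE UMI. ICAM1 stood at 297 and 917 CPM in them, against 86.9 and 59.4 CPM in members with no SELE UMI. Summed over the few members with SELE, CCL20 and ICAM1 were thus higher in both libraries. BIRC3 stood at 183 CPM in members with SELE and 38.8 CPM in members with no SELE UMI of hRBC. In 5% pdRBC it stood at 13.5 and 18.2 CPM, where the value with SELE rests on 2 UMIs and cannot show a direction. VCAM1 had 5 UMIs in members of 5% pdRBC, 4 of them in members with SELE, and 0 in members of hRBC, where a count of 0 allows up to 3. CSF2, a growth factor for granulocytes and macrophages that was also looked at after its values were seen, had 38 against 29 UMIs in 5% pdRBC (8.92-fold, 5.38 to 15.1) and 13 against 5 in hRBC (26.8-fold, 9.48 to 102). The member UMIs of CSF2 lay in 14 of 152 members of 5% pdRBC and 4 of 61 members of hRBC.

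**Figure D3:**
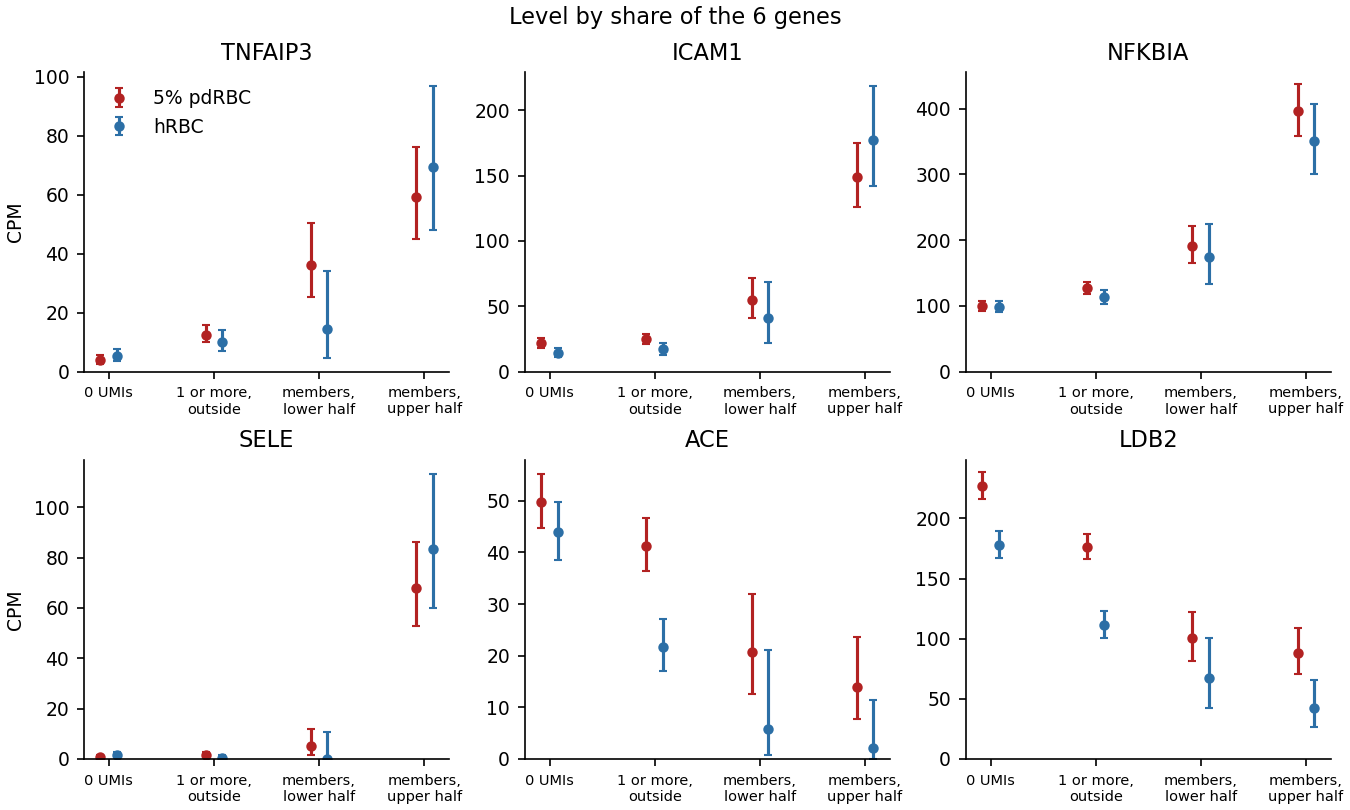
Level in CPM of 6 genes that did not enter the score, in barcodes with 0 UMIs of the 6 score genes, in other remaining barcodes, and in members below and above the median share (lower and upper part), for 5% pdRBC (red, left of each pair) and hRBC (blue). Error bars are exact 95% counting intervals. TNFAIP3, ICAM1 and NFKBIA are higher at each step, SELE stands out in the upper part of members (68.1 and 83.5 CPM), and ACE and LDB2 are lower at each step.

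The levels followed the chemokine share within the members as well. ICAM1 stood at 149 and 177 CPM in the upper part of members in 5% pdRBC and hRBC, against 54.8 and 40.8 CPM in the lower part. NFKBIA stood at 397 and 350 CPM in the upper part, against 191 and 175 CPM in the lower. In remaining barcodes NFKBIA had 128 and 113 CPM where at least 1 UMI of the 6 genes was seen, and 99.7 and 98.2 CPM where none was. SELE was different, at 68.1 and 83.5 CPM in the upper part against 5.17 and 0 CPM in the lower. PTX3 was higher in the lower than in the upper part of hRBC members (358 and 226 CPM), so the order did not hold for every gene.

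Some immediate early genes, transcribed within minutes of a stimulus, and some feedback genes of the MAPK pathway were also called higher. Of 20 measured immediate early genes 7 were called higher and 0 lower, with a median log2 fold of 0.43. FOS, a subunit of AP-1, stood at 276 against 81.4 CPM in 5% pdRBC (3.39-fold, 3.05 to 3.76) and 55.2 against 24.4 CPM in hRBC (2.28-fold, 1.61 to 3.11). ATF3, a stress-induced factor, stood at 235 against 78.3 CPM in 5% pdRBC and 75.6 against 27.8 CPM in hRBC, and JUNB at 270 against 93.4 CPM in 5% pdRBC and 162 against 67.3 CPM in hRBC. ZFP36, which destabilizes cytokine messengers, stood at 147 against 48.2 CPM in 5% pdRBC and 26.4 against 14.5 CPM in hRBC. Of 11 measured MAPK feedback genes 5 were called higher (DUSP1, DUSP6, DUSP8, SPRY2 and PHLDA1) and 0 lower, 3 were below 1 in both libraries with no call, and the median was 0.55.

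Of 21 measured TGF-beta, BMP and mesenchymal genes 3 were called higher (FST, INHBA and TGFB2) and 1 lower (SMAD6), with a median log2 fold of 0.12. FST, which binds activins, stood at 51.4 against 16.9 CPM in 5% pdRBC and 114 against 30.3 CPM in hRBC. Of its member UMIs in hRBC 92.6% came from 5 members, its detection after thinning was 9.84% of members against 6.92% of remaining barcodes there, and it was no longer called when CXCL8 was left out of the score. INHBA, an activin subunit, was 1.69-fold higher in 5% pdRBC and 1.97-fold higher in hRBC, and TGFB2 1.69-fold in 5% pdRBC and 2.90-fold in hRBC. SMAD6, an inhibitor of BMP signaling, stood at 195 against 343 CPM in 5% pdRBC and 165 against 328 CPM in hRBC. NRG1, a ligand of ERBB receptors, stood at 244 against 92.0 CPM in 5% pdRBC and 242 against 91.8 CPM in hRBC, and HBEGF, a ligand of the EGF receptor and the 1 gene called of 21 measured angiogenesis and tip cell genes, was 1.63-fold higher in 5% pdRBC and 1.58-fold higher in hRBC. The other genes among the 15 with the largest folds were TMEM217, GEM, ANXA3, the decoy receptor TNFRSF6B and the unfolded protein sensor ERN1, with geometric mean folds of 2.47 to 3.24 over both libraries. Of 18 measured disturbed flow and YAP/TAZ genes 5 were called higher (CCN1, ANKRD1, TGFB2, DKK1 and ICAM1) and 0 lower, with a median of 0.25.

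The 15 genes with the smallest folds had at most 44 UMIs each in hRBC members. ACE, the angiotensin-converting enzyme of the endothelial surface, stood at 17.3 against 45.8 CPM in 5% pdRBC (34 UMIs in members, 0.382-fold, 0.259 to 0.533) and 3.60 against 35.2 CPM in hRBC (3 UMIs, 0.119-fold, 0.021 to 0.301). LDB2, a transcriptional cofactor, was the most abundant of them, at 94.1 against 204 CPM in 5% pdRBC (0.463-fold, 0.396 to 0.536) and 52.8 against 152 CPM in hRBC (0.351-fold, 0.251 to 0.468). Neither ACE nor LDB2 was called when CXCL8 was left out of the score, with log2 folds of -1.68 and -0.77. AUTS2 was 0.468-fold in 5% pdRBC and 0.270-fold in hRBC, and CCL23, a chemokine, 0.483-fold in 5% pdRBC and 0.324-fold in hRBC with 15 member UMIs in 5% pdRBC and 4 in hRBC. TRIM2, EXOC3L1, ACTR3B, ARL15, HMCN1, EHD3, RPRD2, NCOA2, TMEM117, TOX2 and SUFU completed the 15 with the smallest folds, with 3 to 50 UMIs each in the members of a library and geometric mean folds of 0.405 to 0.466. HMCN1, RPRD2 and TMEM117 were still called in 8 of 16, 5 of 17 and 8 of 17 alternatives in which they were measured.

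Endothelial identity genes leaned lower with none called. Of 28 measured endothelial identity and junction genes 18 were lower in members in both libraries and 4 were higher, with a median log2 fold of -0.20. VWF, the platelet-binding protein stored in endothelial granules, stood at 328 against 442 CPM in 5% pdRBC and 302 against 391 CPM in hRBC, and EMCN at 135 against 190 CPM in 5% pdRBC and 120 against 198 CPM in hRBC. No gene was called in either direction among the laminar flow genes (11 measured), the heme, iron and NRF2 genes (20), the interferon and MHC class I genes (10), the actin and focal adhesion genes (28), the cholesterol genes (14) or the p53 genes (13). Over all measured genes 0.895% were called higher and 0.719% lower, so lists this short can hold 0 called genes at the common rate. KLF2, the flow-induced factor, had a geometric mean fold of 1.17. Of 22 measured cytokine receptors and adaptors 1 was called, IL1RL1, the interleukin-33 receptor, at 1.58-fold in 5% pdRBC and 1.62-fold in hRBC.

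**Figure D4:**
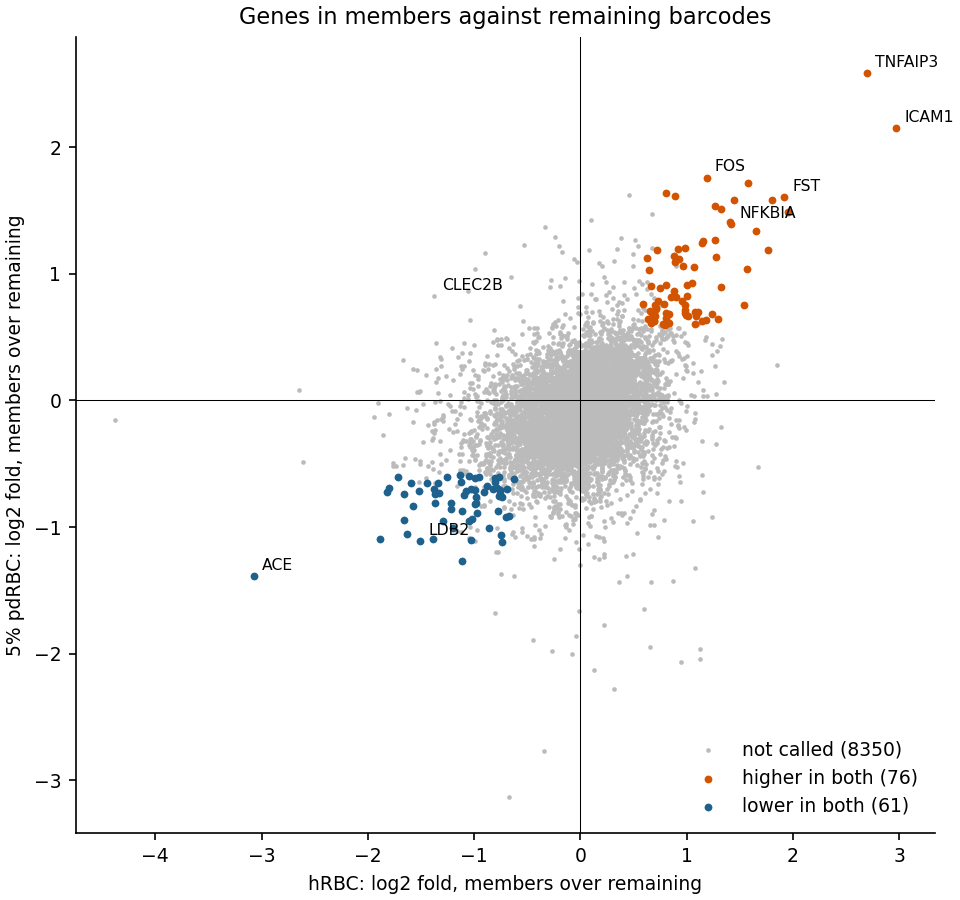
Log2 fold of members over remaining barcodes for 8487 measured genes, in 5% pdRBC (vertical) and hRBC (horizontal). Orange and dark blue mark the 76 genes called higher and 61 called lower in both libraries. TNFAIP3 and ICAM1 stand apart at the upper right and ACE at the lower left, while CLEC2B is higher in 5% pdRBC and lower in hRBC.

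Members differed by which of CXCL8 and CCL2 had more UMIs. Members with more CXCL8 (CXCL8-led, 75 of 5% pdRBC and 19 of hRBC) were set against those with more CCL2 (CCL2-led, 68 and 37). Members with equal counts of both (9 of 5% pdRBC and 5 of hRBC) were left out. Only CXCL8 and CCL2 were weighed, so another of the 6 genes, such as CXCL1, had more UMIs than either in some of these members. The comparison covered 2613 genes with 50 or more UMIs in each library. In CXCL8-led members 28 genes (1.07%) were called higher in both libraries and 22 (0.842%) lower. The higher ones included MAPK feedback genes, SPRY2 at 430 against 142 CPM in 5% pdRBC and 260 against 166 CPM in hRBC, DUSP6 at 221 against 101 CPM in 5% pdRBC and 176 against 95.4 CPM in hRBC, and PHLDA1 at 297 against 110 CPM in 5% pdRBC and 172 against 99.5 CPM in hRBC, 3 of the 5 measured in that list. MYC, a transcription factor of cell growth, stood at 126 against 77.0 CPM in 5% pdRBC and 122 against 37.3 CPM in hRBC, and ERRFI1, an inhibitor of the EGF receptor, at 199 against 59.5 CPM in 5% pdRBC and 125 against 49.8 CPM in hRBC. SRXN1, which repairs oxidized peroxiredoxins, was 2.34-fold higher in 5% pdRBC and 1.98-fold higher in hRBC, and OSGIN1, an oxidative stress gene, 3.19-fold higher in 5% pdRBC and 2.31-fold higher in hRBC. SRXN1 and OSGIN1 were the 2 called of 16 measured heme, iron and NRF2 genes. These groups of members were made from the same counts that chose the members, so the values describe them and test nothing.

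Some endothelial genes were lower in CXCL8-led members. VWF stood at 209 CPM in CXCL8-led against 472 CPM in CCL2-led members of 5% pdRBC and at 122 against 421 CPM in hRBC, EMCN at 87.4 against 181 CPM in 5% pdRBC and 67.5 against 158 CPM in hRBC, and SOX18, an endothelial transcription factor, at 168 against 258 CPM in 5% pdRBC and 152 against 529 CPM in hRBC. These are 3 of 24 measured endothelial identity and junction genes, of which 0 were called the other way. ICAM1 was lower in CXCL8-led members too, at 77.6 against 136 CPM in 5% pdRBC and 43.9 against 182 CPM in hRBC, and SELE had 16 UMIs in CXCL8-led against 57 in CCL2-led members of 5% pdRBC and 0 against 41 in hRBC. Of the 88 ICAM1 UMIs in CCL2-led members of hRBC, 55 lay in the 6 members with SELE UMIs. The ICAM1 value of hRBC thus leans on few members. TFPI2, an inhibitor of coagulation proteases, FABP5, a fatty acid carrier, and MGP, an inhibitor of calcification, were lowest in CXCL8-led members, at geometric mean folds of 0.275, 0.304 and 0.351. The NF-kB subunits and feedback genes (7 measured), the NF-kB and interleukin-1 target genes (11) and the immediate early genes (11) had 0 called in either direction. Their median log2 folds of CXCL8-led over CCL2-led members were, in that order, -0.01, 0.37 and 0.43, against -0.004 over all 2613 genes. With 1.07% of all genes called higher and 0.842% lower, lists this short can hold 0 called genes at the common rate. CXCL8-led members had a median of 12648 UMIs in 5% pdRBC and 14400 in hRBC, against 11020.5 and 13098 in CCL2-led members.

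**Figure D5:**
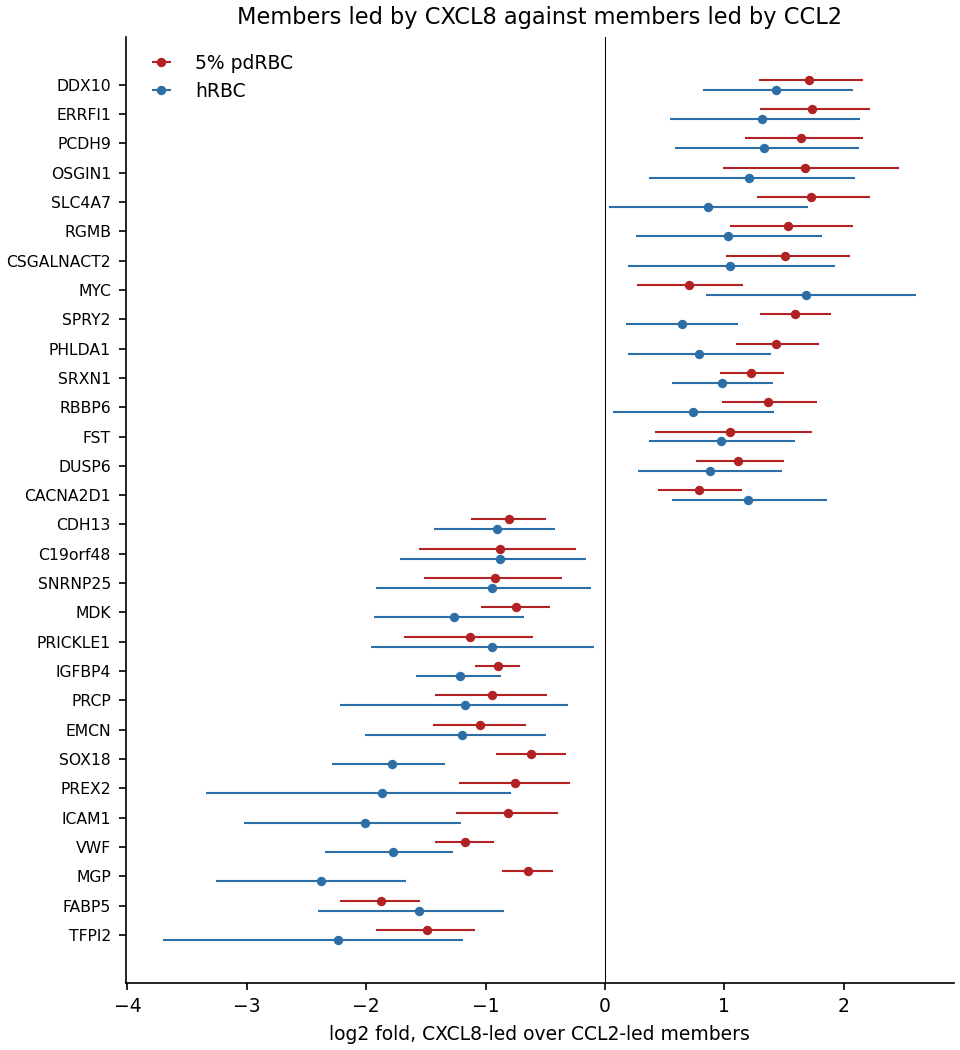
Log2 fold of CXCL8-led over CCL2-led members for the 15 genes with the largest and the 15 with the smallest folds among those called in both libraries. Red points are 5% pdRBC, blue points hRBC, and lines are exact 95% counting intervals. MAPK feedback genes (SPRY2, PHLDA1, DUSP6) lie on the right, and VWF, EMCN, SOX18 and ICAM1 on the left.

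Between the libraries, members of 5% pdRBC were compared with members of hRBC over 4340 genes with 100 or more UMIs in all members. With 5% pdRBC 204 genes (4.7%) were 1.5-fold or more higher with an interval leaving out 1 and 137 (3.16%) lower. Of these 34 and 13 were called the same way between the libraries' remaining barcodes, and 0 the opposite way. How many of all 4340 genes were called between the remaining barcodes is not given here, so these counts are not read as agreement. Treatment, device, culture and library coincide, and their parts in these values cannot be told apart. Of the 63 genes higher in members that were measured here, 16 were higher and 5 lower with 5% pdRBC.

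Immediate early genes were the list with the most calls, 14 of 19 higher and 0 lower with 5% pdRBC, with a median log2 fold of 0.97 among members and 0.47 among remaining barcodes. EGR1 stood at 184 CPM in members of 5% pdRBC (361 UMIs) and 19.2 CPM in members of hRBC (16 UMIs), 9.29-fold (5.81 to 16.9), against 6.73-fold in remaining barcodes. FOS stood at 276 CPM in 5% pdRBC members and 55.2 CPM in hRBC members (4.95-fold, 3.69 to 6.91), FOSB at 224 CPM in 5% pdRBC and 45.6 CPM in hRBC members (4.86-fold, 3.53 to 7.05), and ZFP36 at 147 CPM in 5% pdRBC and 26.4 CPM in hRBC members (5.46-fold, 3.61 to 9.03). HDAC9, a histone deacetylase, stood at 278 CPM in 5% pdRBC members and 54.0 CPM in hRBC members (5.10-fold) and 1.51-fold higher in remaining barcodes. USP53 (5.71-fold), CLEC2B (5.38-fold) and MMP10, a matrix protease (4.80-fold), were 1.37-fold, 1.17-fold and 1.27-fold between the libraries' remaining barcodes, and their hRBC member values rest on 8, 9 and 12 UMIs. Of 13 measured NF-kB subunits and feedback genes 1 was higher and 4 were lower with 5% pdRBC, with a median of -0.07.

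Among the genes lower with 5% pdRBC, LINGO1, a nervous system receptor protein, stood at 13.7 CPM in members of 5% pdRBC and 150 CPM in members of hRBC (0.0929-fold, 0.0581 to 0.140), close to its 17.4 CPM in remaining 5% pdRBC and 148 CPM in remaining hRBC barcodes. Among the 8 genes with the smallest folds were PCLAF (26.5 CPM in 5% pdRBC, 81.5 CPM in hRBC), CKS1B (36.6 CPM in 5% pdRBC, 106 CPM in hRBC), PTTG1 (26.5 CPM in 5% pdRBC, 73.2 CPM in hRBC), CENPN (25.4 CPM in 5% pdRBC, 62.4 CPM in hRBC) and CENPW (30.5 CPM in 5% pdRBC, 70.8 CPM in hRBC). Between the libraries' remaining barcodes PCLAF (0.863-fold), CKS1B (0.791-fold), PTTG1 (0.745-fold) and CENPN (1.05-fold) were not called. CENPW (0.650-fold), FST (0.559-fold) and ADIRF (0.577-fold) were called lower with 5% pdRBC there too. Of the listed G2 and M phase genes 2 were measured between the libraries' members and 1 was lower with 5% pdRBC. Of the S phase genes 1 was measured and 0 were called. FST stood at 51.4 CPM in 5% pdRBC and 114 CPM in hRBC members, with the hRBC value resting on few members as above, and ADIRF at 27.5 CPM in 5% pdRBC and 60.0 CPM in hRBC members. G2 and M phase genes, of which 17 were measured between members and remaining barcodes, had a median log2 fold of -1.65 in 5% pdRBC and 0.38 in hRBC and 0 called in either direction. The 24 genes of that list together stood at 252 CPM in members and 415 CPM in remaining barcodes of 5% pdRBC, and at 644 CPM in members and 486 CPM in remaining barcodes of hRBC. By their summed level these messengers were thus lower in members than in the rest with 5% pdRBC and higher in members with hRBC.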

How the data were processed

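Per the labels' protocols, endothelial cells were removed from the devices, red cells were lysed, and 5′ libraries were made on the 10x Chromium with the v2 kit, 1 per group. The deposited matrices are unnormalized UMI counts, from Cell Ranger 7.0.0 and GRCh38 per the submitters' processing notes. No source used here gives the annotation release or any correction for free RNA.

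UMIs were summed per library and set of barcodes with Python 3.11.15 (NumPy 2.4.6, SciPy 1.17.1, pandas 2.3.3, matplotlib 3.10.9). Levels are CPM with the 6 genes left out of the total, except for markers and the 6 genes. Folds add 0.5 UMI to each count, with exact Clopper-Pearson 95% intervals for counting error only. Detection shares named as thinned draw 5000 UMIs from each barcode. The calling rule was run on simulated counts that held no spread between cells. That run cannot show how the rule behaves where few cells hold most of a gene's UMIs. Genes named were the 15 largest and 15 smallest geometric mean folds among called genes, the 8 and 8 between libraries at 20 CPM or more in 1 library, and up to 4 per list, leaving out mitochondrial, ribosomal protein, clone-named and long intergenic genes. SELE, CCL20, BIRC3, VCAM1, CSF2 and some further list genes, among them those named for CXCL8-led and CCL2-led members, were named after their values were seen. The members and the 38 gene lists were chosen with earlier results of these data known. Alternatives changed the score, the top share, the minimums and the fold limit.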

Additional observations from a re-analysis of the deposited data

Results flagged for a closer look

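CLEC2B and MMP10 went opposite ways in the libraries. CLEC2B was 1.77-fold in members over remaining barcodes of 5% pdRBC and 0.384-fold in hRBC, where 9 member UMIs were counted. MMP10 was 1.82-fold in 5% pdRBC and 0.481-fold in hRBC, on 12 member UMIs. Both intervals left out 1 in each library. CKS1B and CENPN went the other way, CKS1B at 0.663-fold in 5% pdRBC and 1.51-fold in hRBC, and CENPN at 0.615-fold in 5% pdRBC and 1.57-fold in hRBC. The median log2 fold of 17 measured G2 and M phase genes was -1.65 in 5% pdRBC and 0.38 in hRBC. The difference between the libraries was not tested for any of these, since each group is 1 library.

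Barcodes under 5000 UMIs entered only the alternative with a minimum of 3000 UMIs, and some of them held high chemokine shares too. At or above the lowest share of a member were 17.3% of 225 such barcodes of 5% pdRBC (12.6 to 22.9) and 12.2% of 3073 of hRBC (11.1 to 13.4). Of these, 9 of 39 in 5% pdRBC and 216 of 375 in hRBC rested on 1 UMI of the 6 genes.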

How the results depend on the processing

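No paired analysis was possible because each group is 1 library. Direction under the alternatives was compared for the share of members, the chemokine mix and the named genes, not for every called gene. No called result among these changed direction. Apart from these alternatives, at 10 or more thinned UMIs the difference in share was -0.32 points (-1.58 to 0.735), as given above. Genes higher in members numbered 50 with CXCL8 left out of the score (33 of them shared with the 76), 117 without CCL2 (68 shared), 29 with a minimum of 500 UMIs and 20 at a 2-fold limit. Genes lower in members numbered 26 without CXCL8 (11 shared with the 61), 116 without CCL2 (38 shared), 28 with the top 20% (16 shared), 15 at 500 UMIs and 8 at 2-fold. Against remaining barcodes with 0 UMIs of the 6 genes, an alternative chosen after seeing the data, 108 were lower. Between libraries among members, 89 were lower with 5% pdRBC with the top 5%, 256 with a minimum of 50 UMIs and 10 with 500, and 34 were higher with 500. For the minimums and the fold limit the construction itself sets fewer or more genes, and for the others the cause was not tested. The difference in the share of members was 7.84 points with the top 20%, and the CXCL8 difference in mix was 4.69 points without CXCL8 in the score. The CXCL1 difference in mix stayed between -15.7 and -13.1 points. Without the 10 highest members, also chosen after seeing the data, 71 genes were higher and 55 lower in members. The hRBC member values rest on 61 members and 835066 UMIs, which limits what low genes can show.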
